A study of Mus musculus with 12 samples.

Results

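The metallothioneins considered here were Mt1, Mt2 and Mt3, the 3 genes of the family chosen by symbol from the 35275 genes of a deposited table of poly(A) RNA sequencing reads. They were followed in whole lungs of male wild-type C57Bl/6J mice aged 3, 6, 12 and 24 months, with 3 mice at each age and 1 library from each mouse. No group carried a transgene or received an agent, and age was the labelled difference between the groups. The choice used measured values, since Mt3 had already been seen to be high at 24 months, so values of the 24-month mice are given as a description with no test of the members. The fourth gene of the mouse cluster, Mt4, is given beside them where its reads bear on a value. All 3 members passed the filter on low counts, which kept 16042 genes, and Mt3 passed it only through its reads in the older mice.

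Metallothioneins are small cytosolic proteins in which clustered cysteines bind zinc and copper, and also cadmium and other toxic metals. In mice, Mt1 and Mt2 are made in most tissues and are induced together when the zinc sensor Mtf1 binds metal response elements in their promoters. Glucocorticoids and acute phase signals such as interleukin 6 also induce them. Mt3, first described as a growth inhibitory factor of brain, is made mainly in neurons and glia and responds little to metals. Mt4 is known from stratified squamous epithelium.

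The 3 genes lie on the forward strand of 1 stretch of chromosome 8, in build mm10. Mt3 (ENSMUSG00000031760) spans chr8:94152607-94154148, Mt2 (ENSMUSG00000031762) spans chr8:94172618-94173567 and Mt1 (ENSMUSG00000031765) spans chr8:94179089-94180325. The stretch from the start of Mt3 to the end of Mt1 measures 27.7 kb, and 5.52 kb separate the end of Mt2 from the start of Mt1. The exonic lengths used by the authors were 540 bp for Mt1, 556 bp for Mt2 and 538 bp for Mt3, so all 3 are short transcripts of 3 exons. The coding sequences below, from GENCODE M21 on GRCm38, are shown because cysteine codons define the family and because nearly alike genes can share reads. Capitals mark the cysteine codons, TGC or TGT, in frame.
Mt1: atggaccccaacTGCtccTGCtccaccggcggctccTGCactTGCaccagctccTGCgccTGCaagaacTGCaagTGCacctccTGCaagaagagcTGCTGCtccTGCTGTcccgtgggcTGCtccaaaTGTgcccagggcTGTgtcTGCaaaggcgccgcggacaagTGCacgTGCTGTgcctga
Mt2: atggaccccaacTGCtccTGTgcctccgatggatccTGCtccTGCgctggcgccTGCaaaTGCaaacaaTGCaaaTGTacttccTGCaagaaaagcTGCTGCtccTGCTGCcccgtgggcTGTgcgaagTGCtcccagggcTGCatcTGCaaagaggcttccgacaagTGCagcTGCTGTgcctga
Mt3: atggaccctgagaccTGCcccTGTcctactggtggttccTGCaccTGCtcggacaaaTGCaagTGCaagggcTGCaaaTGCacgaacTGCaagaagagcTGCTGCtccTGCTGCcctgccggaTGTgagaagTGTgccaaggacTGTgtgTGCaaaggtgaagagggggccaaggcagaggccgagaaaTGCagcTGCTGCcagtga
Each coding sequence held 20 cysteine codons, 16 of them TGC and 4 TGT, in 61 codons of Mt1, 61 codons of Mt2 and 68 codons of Mt3. Mt1 and Mt2 were identical at 148 of 186 aligned bases, or 79.6%. Mt3 was identical to Mt1 at 66.2% and to Mt2 at 67.6% of 207 aligned columns, 21 of which were gaps. The longest run shared exactly was 20 bases between the transcripts of Mt1 and Mt2, 27 bases between Mt1 and Mt3, and 20 bases between Mt2 and Mt3. Mt2 overlaps Gm45774, an antisense gene in GENCODE M21 that shares a run of 212 bases with it, and without a stated strand setting the reads of both cannot be told apart.

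The promoters, from RefSeq on GRCm38.p6, run from 250 bases before to 50 after each gene start and are shown because metal response elements are the best known feature of these genes. Capitals mark the core letters TGCACNC or TGCGCNC on either strand, so that GTGTGCA and GTGCGCA are matches on the reverse strand.
Mt1 chr8:94178839-94179138: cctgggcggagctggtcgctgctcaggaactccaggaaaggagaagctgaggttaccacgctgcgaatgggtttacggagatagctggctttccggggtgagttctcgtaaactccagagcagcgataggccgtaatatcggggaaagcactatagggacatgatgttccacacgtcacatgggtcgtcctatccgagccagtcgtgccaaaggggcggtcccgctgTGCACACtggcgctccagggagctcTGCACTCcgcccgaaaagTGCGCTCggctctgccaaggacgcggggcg
Mt2 chr8:94172368-94172667: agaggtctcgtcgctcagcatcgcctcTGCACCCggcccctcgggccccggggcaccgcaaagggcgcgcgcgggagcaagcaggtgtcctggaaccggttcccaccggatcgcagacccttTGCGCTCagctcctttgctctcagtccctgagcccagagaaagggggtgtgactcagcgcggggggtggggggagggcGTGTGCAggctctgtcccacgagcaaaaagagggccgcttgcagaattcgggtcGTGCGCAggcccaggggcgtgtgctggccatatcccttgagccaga
Mt3 chr8:94152357-94152656: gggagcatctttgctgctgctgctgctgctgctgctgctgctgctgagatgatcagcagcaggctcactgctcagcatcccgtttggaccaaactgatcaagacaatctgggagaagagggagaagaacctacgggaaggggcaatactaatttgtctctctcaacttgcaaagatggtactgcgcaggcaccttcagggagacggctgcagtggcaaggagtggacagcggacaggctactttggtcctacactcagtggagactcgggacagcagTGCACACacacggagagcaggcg
The Mt1 window held 3 matches, the Mt2 window 4 and the Mt3 window 1. At least 1 match was present in 25.7% of 32851 RefSeq promoters of the same length, at least 3 in 1.97% and at least 4 in 0.517%. The letters TGACNNNGC, the core of the antioxidant response element, occurred once in the Mt2 window and in neither of the other windows, and 12.4% of all promoters held them. These matches describe letters only and carry no measurement of binding.

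Libraries held 14.7 to 21.2 M gene reads. The 24-month libraries differed from the rest in base composition, with a read-weighted GC content of 54.3 to 55.9%, against 50.5 to 51.8% in the other 9 libraries. They also had fewer genes with a read, 17533 to 18513, against 19539 to 20625 in the others, and the part of either in the 24-month values was not tested. Levels are given as CPM, reads of a gene brought to a common library size, with library sizes scaled by the trimmed mean of M values (TMM), and where stated as CPM of all gene reads. The TMM factors were 0.521 to 0.826 in 24-month libraries and 1.06 to 1.20 in the others, so both scales are needed at 24 months. Lung markers such as Sftpc and Sftpb were abundant in every library, and all 16 lung markers had reads throughout, with their lowest sum in 24-month mouse 3. Their levels were not constant with age. At 24 against 3 months 6 of the 16 were called higher and 8 lower with TMM (edgeR adjusted p under 0.05). Over all genes 38.2% were called higher and 44.6% lower. With an offset for the GC content and length of each gene 3 were higher and 6 lower, beside 30.2% and 26.9% of all genes. In bulk tissue, fewer cells of a type and less RNA per cell cannot be told apart.

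Mt1 was the most abundant of the 3 genes at every age. Mt1 had 47.7, 38.9 and 44.9 CPM in 3-month lungs, 44.0, 52.3 and 46.5 CPM in 6-month lungs, 44.4, 60.3 and 56.0 CPM in 12-month lungs, and 93.4, 109.6 and 156 CPM in 24-month lungs. The values of the 3, 6 and 12-month mice overlapped, and each 24-month value lay above all of them. The same held for 34.4% of all genes, and 38.6% had each 24-month mouse above all 3-month mice. As CPM of all gene reads, Mt1 averaged 80.7 ± 3.49 at 24 months, against 51.2 ± 4.18 at 3 months (SD, n = 3 each). On that scale too, each 24-month mouse, at 77.1, 84.1 and 81.1 CPM, lay above the highest younger mouse, at 64.1 CPM, which held for 22.1% of all genes. Per length, on the authors' FPKM scale, Mt1 averaged 94.9, 101.6, 106.1 and 149.5 FPKM at 3, 6, 12 and 24 months, and its rank among all genes lay between 450 and 740 in every library.

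The ranges of Mt2 at the 4 ages all overlapped on the TMM scale. Mt2 had 24.5, 19.7 and 19.8 CPM at 3 months, 22.3, 24.3 and 28.1 CPM at 6 months, 18.5, 28.8 and 39.7 CPM at 12 months, and 23.8, 29.6 and 24.8 CPM at 24 months. The widest spread was among the 12-month mice, which held both the lowest and the highest value of all 12 lungs. As CPM of all gene reads, Mt2 had 19.6, 22.7 and 12.9 CPM in 24-month lungs, against 28.4, 23.7 and 22.7 CPM in 3-month lungs, so that the direction at 24 months depended on the scale. Per length, Mt2 averaged 44.9, 51.6, 55.7 and 33.1 FPKM at 3, 6, 12 and 24 months, below Mt1 in every library.

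Mt3 was close to the limit of detection in young lungs. Mt3 had 1, 1 and 3 reads at 3 months, 13, 3 and 3 reads at 6 months, 13, 9 and 19 reads at 12 months, and 25, 26 and 51 reads at 24 months. On the TMM scale these were 0.0413, 0.0439 and 0.158 CPM at 3 months, 0.715, 0.151 and 0.135 CPM at 6 months, 0.562, 0.497 and 1.11 CPM at 12 months, and 2.06, 1.89 and 5.97 CPM at 24 months. Each 12-month and each 24-month value lay above all 3-month values, as in 24.0% and 38.6% of all genes, while 1 of the 6-month mice lay within the 12-month range and the others within the 3-month range. Per length, Mt3 averaged 0.175, 0.727, 1.44 and 3.88 FPKM at 3, 6, 12 and 24 months, so even at its highest it remained far below Mt1 and Mt2. Its rank among all genes lay between 15764 and 18375 at 3 months and between 5586 and 8319 at 24 months. The order of levels was Mt1, Mt2 and Mt3 in all 12 lungs.

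**Figure D1:**
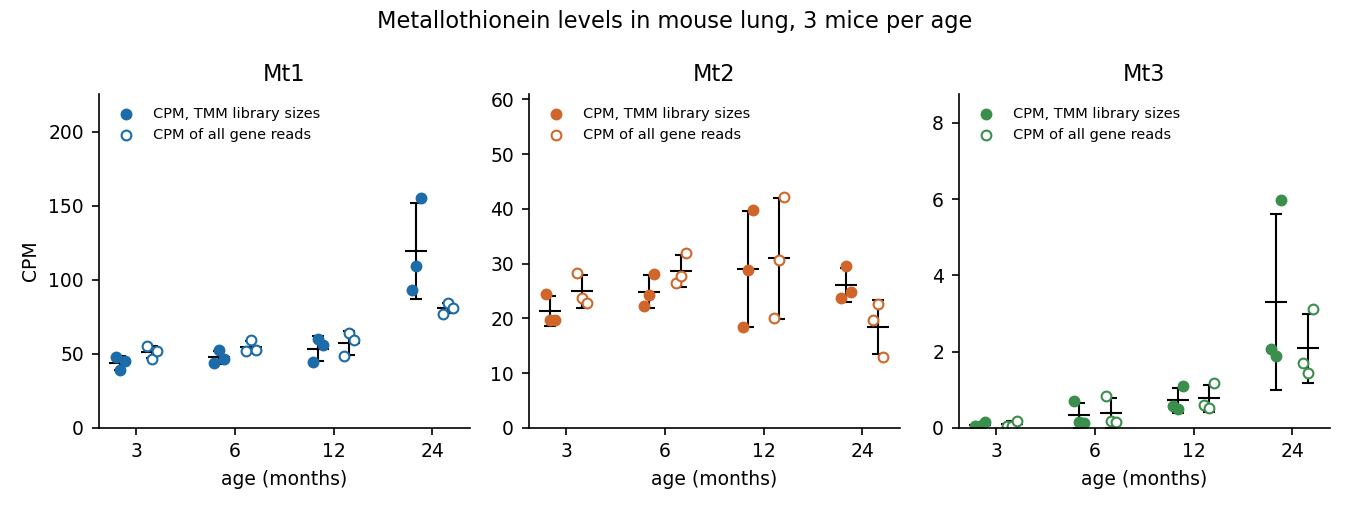
CPM of Mt1, Mt2 and Mt3 in each mouse by age in months, as CPM on TMM library sizes (filled circles) and as CPM of all gene reads (open circles), with the mean and SD of 3 mice. Mt1 and Mt3 are highest at 24 months on both scales, while Mt2 at 24 months averages 26.1 CPM on TMM library sizes and 18.4 CPM of all gene reads.

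Differences among the younger ages were tested with edgeR's quasi-likelihood test on all 12 libraries, with Benjamini-Hochberg adjustment over the 16042 genes. The 3-month mice also served in the comparison that chose Mt3, and Mt3 passed the filter only through the older mice. All its values are therefore a description with no test. At 6 against 3 months neither Mt1 nor Mt2 passed, with log2 fold changes of 0.12 ± 0.21 for Mt1 and 0.22 ± 0.24 for Mt2 (SE) and an edgeR adjusted p of 0.9997 for each. The log2 fold change of Mt3 was 1.98 ± 0.93 (SE), and it was 0.86 without 6-month mouse 1, 2.74 without 3-month mouse 3 and 1.68 to 2.39 on leaving out any other mouse. That comparison called 0 of 16042 genes (0.0%), with 267 genes at an unadjusted p under 0.05, and DESeq2 called 6. Pooled over mice, Mt3 had 19 reads at 6 months, against 5 at 3 months, a ratio per gene read of 4.09 with a 95% exact binomial interval of 1.48 to 14.0, which covers counting error only.

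At 12 against 3 months the log2 fold change of Mt3 was 3.11 ± 0.84 (SE, no test), in a comparison that called 15.2% of all genes. Pooled over mice, Mt3 had 41 reads at 12 months, against 5 at 3 months, a ratio of 8.49 (95% exact binomial interval 3.36 to 27.5, counting error only). On leaving out 1 mouse the log2 fold change was 2.69 to 3.86, the lowest without 12-month mouse 3 and the highest without 3-month mouse 3. Mt3 passed the filter on low counts only through the older mice, and a fit of the 12-month and 3-month mice alone left it out. Some markers of heart and skeletal muscle, of adipocytes and of lung itself were also called higher in the same comparison. Of 10 tested heart and skeletal muscle markers 5 were higher and 0 lower, with a median log2 fold change of 1.05, beside -0.020 for all genes, of which 6.3% were called higher and 8.87% lower. With an offset for the GC content and length of each gene 4 were higher and 0 lower, where 18.9% of all genes were called, 10.4% as higher and 8.45% as lower. The summed level of all 12 was 687 to 785 CPM of all gene reads in 12-month lungs, against 369 to 678 CPM in 3-month lungs, and 10 or 11 of them had reads. Of 12 adipocyte markers 5 were higher and 0 lower, with a median of 1.23, and 2 were higher and 0 lower with the offset. Their sum was 350 to 651 CPM in 12-month lungs, against 417 to 467 CPM in 3-month lungs, with reads of all 12 throughout. Of 16 lung markers 4 were higher and 0 lower with TMM, and 3 higher and 0 lower with the offset. Of 9 tested squamous epithelium markers 0 were called higher and 0 lower under either scaling, with a median of 0.39 with TMM and 0.12 with the offset. With TMM their values ran from -0.73 ± 0.39 for Trp63 to 2.93 ± 2.85 for Krt4 (SE). With SEs that wide, the absence of calls does not show equal levels. The sum of all 14 was 24.5 to 35.4 CPM in 12-month lungs, against 22.9 to 26.4 CPM in 3-month lungs. The part of these markers in the Mt3 value was not tested.

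Neither Mt1 nor Mt2 passed the test in any comparison among 3, 6 and 12 months. At 12 against 3 months the log2 fold change was 0.29 ± 0.21 for Mt1 (SE, edgeR adjusted p = 0.331) and 0.44 ± 0.24 for Mt2 (SE, edgeR adjusted p = 0.200). At 12 against 6 months it was 0.17 ± 0.21 for Mt1 and 0.22 ± 0.24 for Mt2, with edgeR adjusted p of 0.620 and 0.577. That comparison called 2.03% of genes. For Mt3 the log2 fold change at 12 against 6 months was 1.13 ± 0.68 (SE, no test). It was 2.25 without 6-month mouse 1, and 0.71 to 1.33 without any other mouse. The signs for Mt1 and Mt2 at 12 against 6 months turned when GC content and length were taken into account, to -0.094 for Mt1 and -0.074 for Mt2. A missed threshold does not show that the levels were equal.

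In the authors' deposited table, the log2 fold changes at 12 against 3 months were 0.26 for Mt1, 0.38 for Mt2 and 1.35 for Mt3. At 6 against 3 months the authors' deposited table gave 0.099 for Mt1, 0.17 for Mt2 and 0.092 for Mt3. At 24 against 3 months the authors' deposited table gave log2 fold changes of 1.52 for Mt1, 0.36 for Mt2 and 4.86 for Mt3. The authors' values for Mt1 and Mt2 lay within 0.1 log2 units of the edgeR values at each age, and those for Mt3 were smaller.

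At 24 against 3 months the edgeR log2 fold change was 1.45 ± 0.22 for Mt1, 0.29 ± 0.24 for Mt2 and 5.27 ± 0.77 for Mt3 (SE, no test), in a comparison that called 82.8% of all genes and 38.2% as higher. Pooled over mice, Mt3 had 102 reads at 24 months, against 5 at 3 months, a ratio per gene read of 23.4 (95% exact binomial interval 9.72 to 73.7). The same ratio was 1.58 for Mt1 (1.502 to 1.654) and 0.735 for Mt2 (0.676 to 0.800). These ratios are per gene read, without TMM. Their intervals take reads and not mice as the unit, cover counting error only and are no test of the members. Against 12 months, the 24-month log2 fold change was 1.16 ± 0.21 for Mt1, -0.15 ± 0.24 for Mt2 and 2.16 ± 0.58 for Mt3. With TMM, most of the difference of Mt1 over the 4 ages therefore lay between 12 and 24 months, while that of Mt3 lay on both sides of 12 months.

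The size of these 24-month values depended on the scaling. With library totals in place of TMM, the 24 against 3 months log2 fold changes were 0.66 for Mt1, -0.44 for Mt2 and 4.44 for Mt3, where the median of all genes was -1.001 instead of -0.29 with TMM. With an offset for a smooth trend of each library on GC content they were 0.27 for Mt1, -0.65 for Mt2 and 3.32 for Mt3. With an offset for GC content and gene length they were 0.95 ± 0.13 for Mt1, -0.041 ± 0.22 for Mt2 and 3.80 ± 0.72 for Mt3, with the median of all genes at 0.0047. Mt1 and Mt3 kept a positive sign under each of these scalings, and Mt2 had a positive sign only with TMM. Mt2 lay above the median of all genes with TMM and with library totals, and below it with both offsets. The Mt3 value at 12 against 3 months moved less, at 2.66 ± 0.79 with the offset for GC content and length (SE).

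**Figure D2:**
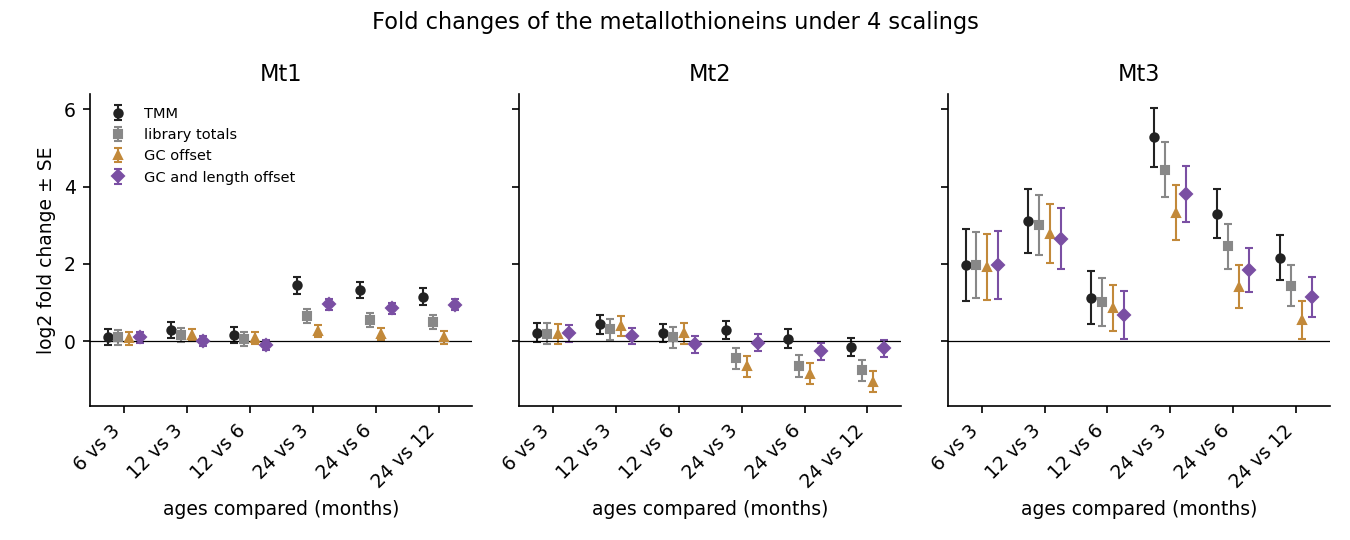
Log2 fold changes with SE for Mt1, Mt2 and Mt3 in the 6 comparisons of ages (later over earlier age, in months), with TMM, library totals, a GC offset, and a GC and length offset. For Mt3 against 3 months the 4 scalings range between 2.66 and 3.11 at 12 months and between 3.32 and 5.27 at 24 months, and for Mt1 and Mt2 at 12 against 6 months the GC and length offset alone lies below 0.

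The ratio of Mt1 to Mt2 reads within a library is free of library scaling. It was 1.94, 1.97 and 2.27 at 3 months, 1.98, 2.15 and 1.65 at 6 months, 2.41, 2.10 and 1.41 at 12 months, and 3.93, 3.71 and 6.27 at 24 months. The 9 younger lungs lay between 1.41 and 2.41, and each 24-month lung lay above them, given as a description with no test. How many other pairs of genes separate in this way was not computed. Of single genes, 34.4% had each 24-month mouse above all 9 younger mice on the TMM scale. The ratio averaged 4.63 ± 1.42 at 24 months, against 2.06 ± 0.183 at 3 months (SD, n = 3 each). Among 3, 6 and 12 months age accounted for a share of 0.0458 of the variance of the log2 ratio, with an exact permutation p of 0.90 (one-sided over all arrangements of the 9 libraries, smallest possible p 0.00357). The share moved between 0.0034 without 3-month mouse 3 and 0.333 without 12-month mouse 3, with exact permutation p of 1.0 and 0.379, and was 0.231 without 12-month mouse 1. Mt1 and Mt2 have nearly the same length and GC content, at 54.6% and 53.8%, and the smooth trend on both predicted a difference in log2 units of 0.051 to 0.18 at 24 months and of -0.080 to -0.0034 at the younger ages. With that trend removed, the log2 ratio was 1.84 to 2.46 in 24-month lungs, against 0.58 to 1.31 in the 9 younger lungs. These ranges did not overlap, again with no test and no share over other pairs of genes.

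Mt3 made up a small part of metallothionein reads at every age. Its share of the summed reads of Mt1, Mt2 and Mt3 averaged 0.125% at 3 months, 0.482% at 6 months, 0.862% at 12 months and 2.09% at 24 months. The 24-month lungs, at 1.73, 1.34 and 3.20%, lay above all younger lungs, of which the highest had 1.14%. Because Mt3 was chosen for its high 24-month values, this order is a description with no test. On the TMM scale 34.4% of all genes had each 24-month mouse above all 9 younger mice. The summed reads of all 3 genes came, as CPM of all gene reads, to 76.3 ± 6.63 at 3 months, 83.9 ± 4.09 at 6 months, 89.0 ± 17.7 at 12 months and 101 ± 6.05 at 24 months (SD, n = 3 each). The sum at 24 months overlapped that at 12 months, whose mice ranged more widely.

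**Figure D3:**
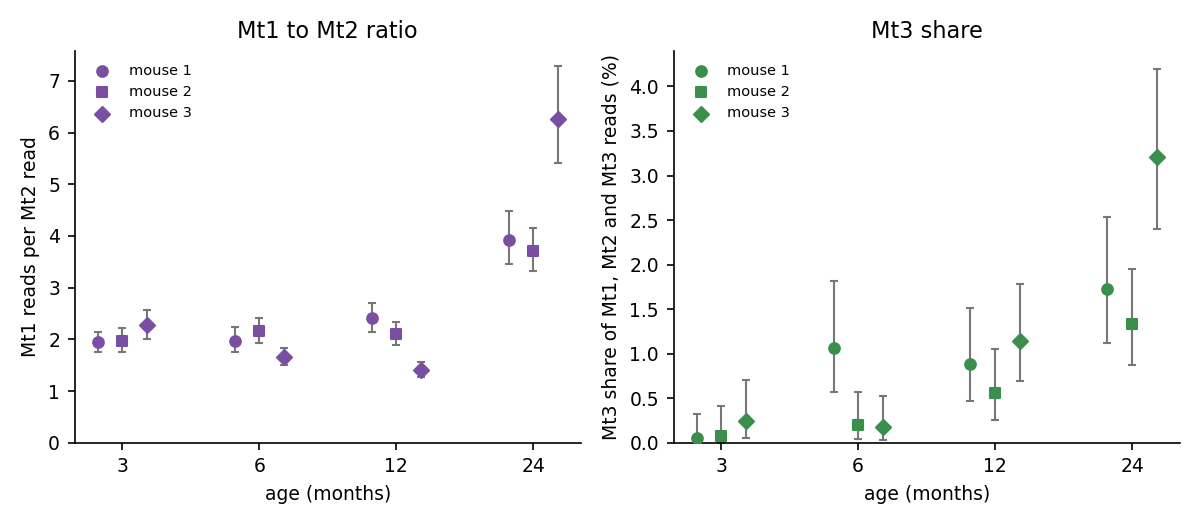
Left, Mt1 reads per Mt2 read, and right, Mt3 reads as a percentage of all metallothionein reads, in each mouse by age in months, with 95% exact binomial intervals that cover counting error only. The 24-month mice have ratios of 3.93, 3.71 and 6.27, above the 9 younger mice, and Mt3 shares of 1.73, 1.34 and 3.20%. The 24-month values are a description with no test.

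The lung of 24-month mouse 3 stood apart from the other lungs and had the highest Mt3 level and the highest Mt1 to Mt2 ratio. It held 697 CPM of all gene reads from 14 squamous epithelium markers, against 18.3 and 21.9 CPM in the other 24-month lungs and 22.9 to 35.4 CPM in the younger lungs. Krt4 and Krt13, keratins of non-cornified squamous epithelium, had 4325 and 3921 reads there, against at most 41 and 12 in any other lung. Acta1, skeletal muscle actin, had 1671 reads, against at most 33 elsewhere. Mt4 had 34 reads in this lung and 0 reads in each of the other 11. The summed lung markers came to 34775 CPM of all gene reads here. They came to 71407 and 57481 CPM in 24-month mice 1 and 2, and to 59655 to 85574 CPM in the younger lungs. Scgb1a1, the secretory protein of club cells, had 95738 reads here. It had 479725 and 412385 reads in 24-month mice 1 and 2, and at least 484777 in the younger lungs. On both measures 24-month mouse 2 also lay below all younger lungs, by less. The part of these markers in the members' values was not tested. Without this mouse the 24 against 3 months log2 fold change was 1.22 ± 0.17 for Mt1, 0.33 ± 0.25 for Mt2 and 4.58 ± 0.72 for Mt3 with TMM. With the offset for GC content and length and without this mouse, a setting added after the data were seen, it was 0.74 ± 0.13 for Mt1, 0.13 ± 0.25 for Mt2 and 3.53 ± 0.75 for Mt3. Both remaining 24-month lungs still lay above all younger lungs for Mt1, for Mt3 and for the ratio of Mt1 to Mt2, given as a description with no test. With all 24-month mice kept, 34.4% of all genes lay above all younger lungs on the TMM scale. Without this mouse that share was not computed, and it cannot be lower.

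Markers of neurons and glia, the cells best known for Mt3, moved in both directions. Of the 12 tested markers, 6 were higher and 3 lower at 24 against 3 months with TMM, with a median log2 fold change of 0.79, beside -0.29 for all genes, of which 38.2% were called higher and 44.6% lower. With the offset for GC content and length 3 were higher and 2 lower, with a median of -0.20, beside 0.0047 for all genes, of which 57.1% were called, 30.2% as higher and 26.9% as lower. At 12 against 3 months 3 were higher and 1 lower with TMM, with a median of 0.10, and 2 higher and 1 lower with the offset. The sum over 16 genes ranged between 67.8 and 117 CPM of all gene reads in 24-month lungs, against 95.2 to 113 CPM in 3-month lungs. Mbp, a myelin protein, supplied 52.5 to 78.2% of that sum, so the sum mostly reports 1 gene. Snap25, a synaptic vesicle fusion protein, had 0 reads in each 24-month lung, against 2 to 6 reads in each 3-month lung. Nefm, a neurofilament gene, had 0 reads at 24 months, against 1 or 2 reads at 3 months, and Nefl had 0 reads at both ages. Tubb3, a tubulin of neurons, had 67, 61 and 82 reads at 24 months, against 19, 17 and 2 reads at 3 months. Sox10, a factor of Schwann cells and other glia, had 17, 11 and 31 reads at 24 months, against 5, 3 and 0 reads at 3 months. Prph, a neurofilament protein of peripheral neurons, was the member of this list that also stood among the genes most like Mt3, with 33, 33 and 54 reads at 24 months, against 5, 6 and 5 reads at 3 months. Tubb3, Sox10 and Prph were also the 3 markers that rose at 12 against 3 months with TMM, by 1.59, 2.47 and 2.45 on the log2 scale (edgeR adjusted p = 0.0422, 0.0425 and 0.00639), and Sox10 and Prph also passed with the offset. The part of these markers in the Mt3 values was not tested.

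Genes that sense or move zinc were followed as a list of 25, made up of Mtf1, the exporters and vesicle transporters of the Slc30 family, and the importers of the Slc39 family. At 12 against 3 months 1 of 21 tested members was higher and 3 were lower, with a median log2 fold change of -0.26, beside -0.020 for all genes, of which 6.3% were called higher and 8.87% lower. At 24 against 3 months 7 were higher and 9 lower with TMM, with a median of -0.0013, beside -0.29 for all genes. With the offset for GC content and length 8 were higher and 6 lower, with a median of 0.13, beside 0.0047 for all genes. The list thus held changes in both directions in proportions near those of the whole table, where 38.2% of genes were called higher and 44.6% lower with TMM, and 30.2% and 26.9% with the offset.

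Mtf1, the factor that links zinc to Mt1 and Mt2 transcription, fell at 24 against 3 months. Mtf1 averaged 7.81 ± 1.63 CPM in 24-month lungs, against 28.2 ± 7.40 CPM in 3-month lungs (SD, n = 3 each), a log2 fold change of -1.84 ± 0.24 with TMM (SE, edgeR adjusted p = 3.71e-06) and of -0.70 ± 0.13 with the offset for GC content and length (SE, edgeR adjusted p = 0.000462). Slc30a1, the plasma membrane zinc exporter and another known Mtf1 target, fell to 8.46 ± 2.05 CPM in 24-month lungs, against 59.4 ± 3.18 CPM in 3-month lungs. Its log2 fold change was -2.80 with TMM and -1.13 with the offset, and it had already fallen at 12 against 3 months, by 0.79 on the log2 scale with TMM (edgeR adjusted p = 0.0172) and by 0.38 with the offset (edgeR adjusted p = 0.0419). Mtf1 at 12 against 3 months did not pass, at -0.53 with TMM (edgeR adjusted p = 0.109) and 0.0024 with the offset.

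Changes among the importers had both signs. Slc39a4, a zinc importer of the plasma membrane, rose at 12 against 3 months by a log2 fold change of 1.00 with TMM (edgeR adjusted p = 0.0162) and 0.62 with the offset (edgeR adjusted p = 0.0055). At 24 against 3 months it was 2.40 with TMM and 0.61 with the offset. Slc39a1 was higher at 24 against 3 months, by 2.09 with TMM and 1.19 with the offset, and Slc39a3 by 2.56 and 0.26. Slc39a8, an importer of zinc and manganese, was lower, by -3.51 with TMM and -1.10 with the offset. Each of these 24-month changes passed the test under both scalings. In the same comparison, and with no test, Mt1 had 1.45 and 0.95, and Mt2 had 0.29 and -0.041.

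**Figure D4:**
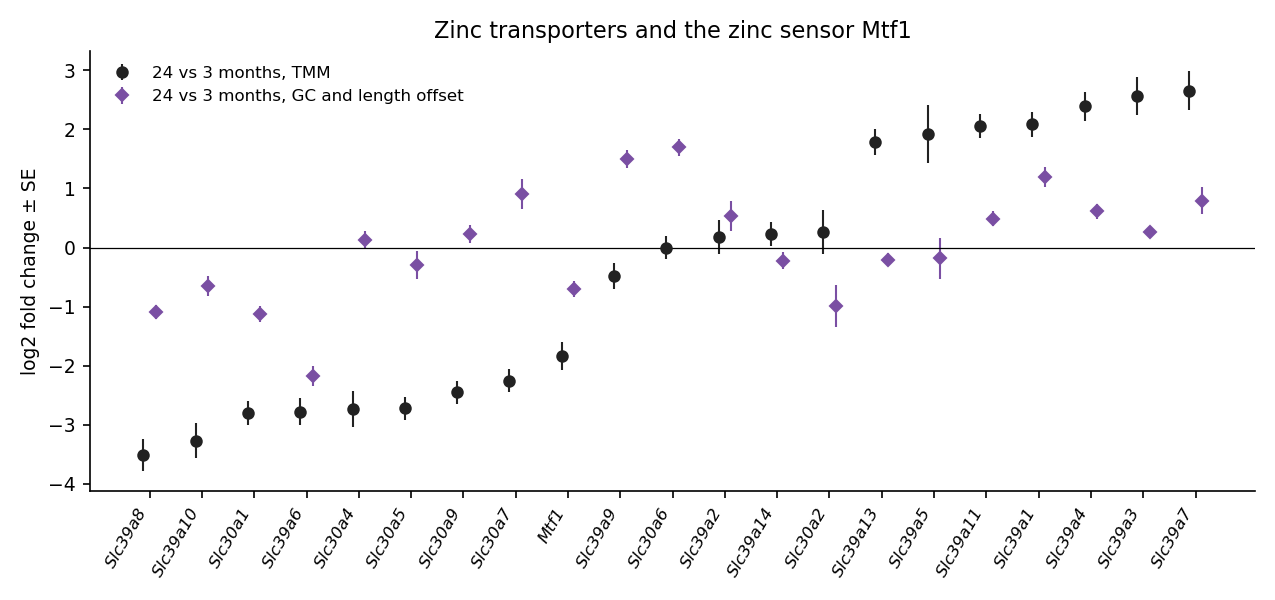
Log2 fold change with SE at 24 over 3 months for Mtf1 and the 20 tested zinc transporters, with TMM (circles) and with a GC and length offset (diamonds), ordered by the TMM value. Mtf1, Slc30a1, Slc39a6, Slc39a8 and Slc39a10 lie below 0 and pass the test on both. Slc39a1, Slc39a3, Slc39a4, Slc39a7 and Slc39a11 lie above 0 and pass the test on both.

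Copper handling, the other metal pathway tied to metallothioneins, had 15 tested genes. At 24 against 3 months 5 were higher and 8 lower with TMM, with a median log2 fold change of -1.29, and 6 were higher and 1 lower with the offset for GC content and length, with a median of 0.21, so the balance of the list turned with the scaling. Over all genes 38.2% were called higher and 44.6% lower with TMM, with a median of -0.29, and 30.2% higher and 26.9% lower with the offset, with a median of 0.0047. Sod3, the extracellular superoxide dismutase that is abundant in lung, was higher under both, at 2.28 with TMM and 1.69 with the offset. Sod1, the cytosolic enzyme, was higher at 0.94 and 0.77. Cp, the copper-carrying ferroxidase ceruloplasmin, was -2.45 with TMM and 0.21 with the offset, and passed the test with TMM alone. Atp7b, a copper-exporting ATPase, did not pass under either scaling, at 0.39 and -0.39.

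Among glucocorticoid response genes 5 of 14 were higher and 7 lower at 24 against 3 months with TMM, and 3 higher and 4 lower with the offset, near the shares of all genes, 38.2% and 44.6% with TMM and 30.2% and 26.9% with the offset. Nr3c1, the glucocorticoid receptor, was -2.63 with TMM and 0.039 with the offset, where it did not pass. Per1, a clock gene that glucocorticoids induce, was 2.48 with TMM and 0.098 with the offset, and Dusp1, a phosphatase induced early by glucocorticoids, was 0.80 and 0.034. Neither passed with the offset. Tsc22d3, a standard glucocorticoid target, was 0.30 with TMM and passed only with the offset, at 0.77, and Errfi1 was lower under both, at -2.07 and -0.66. At 12 against 3 months 0 members were higher and 2 lower with TMM, and 0 higher and 1 lower with the offset.

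Of the STAT3 and acute phase genes 5 of 11 were higher and 2 lower at 24 against 3 months with TMM, and 3 higher and 4 lower with the offset, beside 38.2% and 44.6% of all genes with TMM and 30.2% and 26.9% with the offset. The median log2 fold change was 0.92 with TMM and -0.24 with the offset. Hp, the hemoglobin-binding acute phase protein haptoglobin, rose at 12 against 3 months by 0.81 with TMM (edgeR adjusted p = 0.0183) and missed the threshold with the offset, at 0.42 (edgeR adjusted p = 0.0898). Stat3 and Lrg1 were higher at 24 against 3 months under both scalings, at 0.93 and 0.73 for Stat3 and 2.92 and 0.68 for Lrg1. Il6st, the shared signalling receptor of the interleukin 6 family, was -1.46 with TMM and 0.35 with the offset, both past the threshold and opposite in sign.

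Of the NRF2 response genes, which defend against oxidants, 4 of 12 were higher and 7 lower at 24 against 3 months with TMM, and 7 higher and 2 lower with the offset, beside 38.2% and 44.6% of all genes with TMM and 30.2% and 26.9% with the offset. The median log2 fold change was -0.54 with TMM and 0.67 with the offset. Nfe2l2, the gene of NRF2 itself, was lower under both, at -2.998 and -1.05, and so was Gclc, the catalytic subunit of glutathione synthesis, at -3.03 and -1.91. Prdx1, a peroxiredoxin, was -1.09 with TMM and 1.22 with the offset, and rose at 12 against 3 months under both, by 0.67 (edgeR adjusted p = 0.0384) and 0.92 (edgeR adjusted p = 0.0044). Txn1, thioredoxin, was -0.56 with TMM and 0.0011 with the offset, and passed with TMM alone.

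The genes around the cluster lay on both sides of 0. Within 200 kb of Mt1, Mt2, Mt3 or Mt4, 8 other genes of the table are described here, of which 7 were tested. At 24 against 3 months with TMM, Gnao1, a G protein subunit abundant in neurons, was 1.29 and Nup93, a nuclear pore protein, 0.47. Nudt21, a polyadenylation factor, was -1.42, Ogfod1 -2.09 and Bbs2, a ciliary trafficking protein, -1.50. The unnamed loci Gm15889 and Gm15890 were -1.10 and -2.20. With the offset for GC content and length, Nup93 was 1.32, Nudt21 1.05, Gnao1 0.70 and Ogfod1 0.046, beside 0.95 for Mt1. Bbs2 was -0.99, Gm15889 -1.79 and Gm15890 -2.86 with that offset. At 12 against 3 months the 7 genes lay between -1.43 and 0.27, and Gm15890 alone passed with TMM, as lower (edgeR adjusted p = 0.0454), while Mt3 had 3.11. Slc12a3 was not tested because of low reads.

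**Figure D5:**
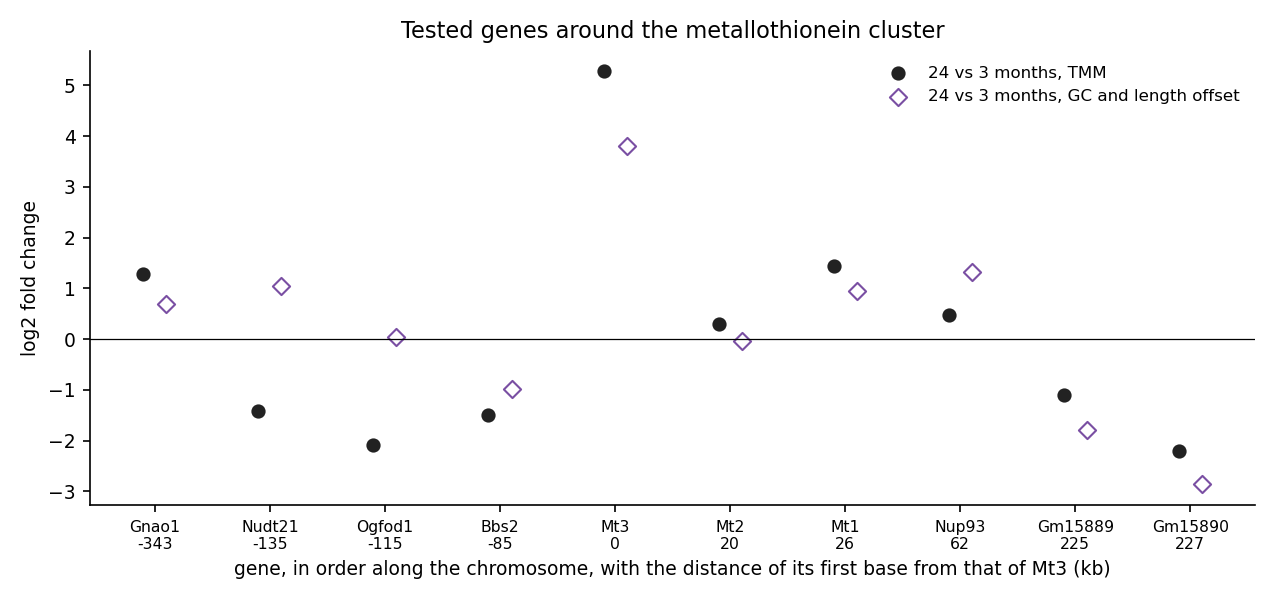
Log2 fold change at 24 over 3 months of Mt1, Mt2, Mt3 and the 7 tested genes described within 200 kb of the cluster, in order along the chromosome, with TMM (circles) and with a GC and length offset (diamonds); the distance in kb is between the first bases of each gene and Mt3. Mt3 stands highest at 5.27 and 3.80, Mt2 lies near 0 at 0.29 and -0.041, and the other genes scatter on both sides of 0.

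The members did not share 1 pattern across the 12 lungs. The Pearson r of log2 CPM was 0.31 between Mt1 and Mt2, 0.86 between Mt1 and Mt3, and 0.31 between Mt2 and Mt3. On deviations from the mean of each age, which leave out the differences between ages, r was 0.40 between Mt1 and Mt2, 0.35 between Mt1 and Mt3, and -0.019 between Mt2 and Mt3. All these points share library depth and base composition, so r is a description with no test.

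The genes most like each member were taken from 13502 genes with a mean of at least 1 CPM. For Mt1 they were Syngr1, Alg3, Cog8, Mogs and Capn10, with r of 0.990 to 0.987, but 25.3% of all genes had r over 0.9 with Mt1. On deviations from the age mean the most like Mt1 were B9d2, Cited4, Slc39a4, Nfil3 and Pak6, with r of 0.952 to 0.944, and 0.437% of genes had r over 0.9. For Mt2 the list was Igkv4-61, Mnda, Igkv3-12, Igkv1-99 and Fxyd5, with r of 0.829 to 0.725, and no gene reached 0.9. On deviations it was Ang, Commd2, Ddx18, Igkv4-61 and Tmem230, with r of 0.940 to 0.888. For Mt3 the list was Ighv1-64, Kcng2, Ighv8-8, Prph and Gpd1, with r of 0.985 to 0.965, and 6.60% of genes had r over 0.9. On deviations it was Igj, Ighv1-64, Kcnc4, RP24-327D15.7 and Grin2c, with r of 0.933 to 0.911. Immunoglobulin variable segments stood in the lists of Mt2 and Mt3, and such segments share sequence with each other, so their own counts are uncertain.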

How the data were processed

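Poly(A) RNA of 12 mouse lungs was sequenced, 3 per age, with the NEBNext Ultra kit per the labels' protocols. The authors deposited counts of reads per gene for each library, and these counts were the only values tested. FPKM was computed by the authors and deposited, and FPKM recomputed from counts and exonic lengths matched 235411 of 235411 values within a relative tolerance of 1e-06. Signal values, means of scaled reads per age, were deposited by the authors and not used. Log2 fold changes and p-values of the comparisons against 3 months were also deposited by the authors, with the test behind them not given in the sources used here. TopHat, STAR 2.5, HTSeq 0.6.1 and build mm10 are named without roles per the submitters' processing notes. For strandedness, sequencing batches and RNA integrity values the sources used here give nothing. Of the columns, 2 repeated signals of 3-month mice and were left unread.

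Genes were filtered with filterByExpr, scaled with TMM and tested with the quasi-likelihood F test of edgeR 4.0.16 (limma 3.58.1, R 4.3.3) on all 12 libraries, with Benjamini-Hochberg adjusted p under 0.05 as the threshold. Each library was 1 mouse. SEs follow from the F statistics. Alternatives were library totals, RLE size factors, DESeq2 1.42.0, limma voom, other filters, other sets of libraries, a replicate block, and offsets from a smooth trend of log2 CPM, fitted with mgcv 1.9.3 for each library on GC content alone or with length. GC content, known for 97.8% of gene IDs, came from GENCODE M21. The tests recovered known changes on simulated data. Recovery for genes with few reads, or under a shift in base composition between libraries, is not shown here. Members, lists and tests were chosen with earlier results of these data known. Named genes were the members, Mt4, Mtf1, Slc30a1, Nfe2l2, Nr3c1, the 5 genes most like each member by each measure, the 4 most abundant tested genes of each list, and genes within 200 kb. Snap25, Nefl, Nefm, Tubb3, Sox10, Krt13, Acta1, Slc39a6, Slc39a7, Slc39a10 and Slc39a11 were named after their values were seen. A few genes that these rules would name are not reported here. Shared replicate numbers did not pair the mice.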

Additional observations from a re-analysis of the deposited data

How the results depend on the processing

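Mt3 at 12 against 3 months had log2 fold changes of 2.65 to 3.25 under the alternatives that kept all mice of both ages and gave a value. Leaving out 1 mouse gave it 2.69 to 3.86, with 0.86 to 2.74 at 6 against 3 and 0.71 to 2.25 at 12 against 6 months. The filter at a mean of 1 CPM, and the fit on the pair alone at 6 and at 12 against 3 months, removed Mt3 and gave no value. Genes called at 6 against 3 months, 0 in the main analysis, were 6 with DESeq2, 2 with no filter, and 1 with the pair alone, with either offset, with the block and offset, and with both added offset settings, which left out the 24-month libraries or 24-month mouse 3; leaving out 1 mouse gave 0 to 1. Genes called at 12 against 3 months, 2433 in the main analysis, were 3962 with the pair alone, 5748 without the 24-month libraries, 3868 with the GC offset, 4794 and 4868 with the added offset settings, and 302 to 5928 on leaving out 1 mouse. Those at 12 against 6 months, 325 in the main analysis, were 187 with RLE, 48 with library totals, 1577 with DESeq2, 656 with voom, 2215 with the pair alone, 3176 without the 24-month libraries, 1888 and 1046 with the offsets, 2550 and 2712 with the added offset settings, and 3 to 3431 on leaving out 1 mouse. The GC and length offset gave 8645 genes at 24 against 6 months and 6778 at 24 against 12 months, the GC offset 7095 at 24 against 12 months, and the added setting without 24-month mouse 3 gave 8740, 8104 and 6223 at 24 against 3, 6 and 12 months.

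Signs turned for Mt1 at 12 against 3 months with both added offset settings (-0.052 and -0.046), and at 12 against 6 months with the GC and length offset for Mt1 (-0.094; -0.15 and -0.15 added) and Mt2 (-0.074; -0.11 and -0.060 added). Mt2 at 24 against 3 months was -0.44 with library totals, -0.65 and -0.041 with the GC offset and the GC and length offset, and at 24 against 6 months -0.64, -0.84, -0.25 and, without 24-month mouse 3, -0.096. At 24 against 12 months Mt2 was -0.75 and -1.05 with library totals and the GC offset. Mt1 was 0.66, 0.27, 0.95 and 0.74 at 24 against 3 months, 0.56, 0.19, 0.85 and 0.64 at 24 against 6 months, with library totals, the GC offset, the GC and length offset and that offset without 24-month mouse 3, and 0.49, 0.10 and 0.78 at 24 against 12 months, where the third did not move it. Mt3 in the same order was 4.44, 3.32, 3.80 and 3.53 against 3 months, 2.46, 1.41, 1.83 and 1.54 against 6 months, and 0.55, 1.15 and 0.81 for the offsets against 12 months. Leaving out 1 mouse gave Mt2 -0.078 to 0.44 at 12 against 6 months, 0.0087 to 0.35, -0.24 to 0.13 and -0.60 to 0.14 at 24 against 3, 6 and 12 months; Mt1 1.22 to 1.60, 1.03 to 1.48 and 0.82 to 1.30; and Mt3 4.58 to 5.79, 2.60 to 4.19 and 1.46 to 2.57. The cause of these shifts was not tested.

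Of 18 same-number pairs of mice 4 correlated over 0.1 (median r -0.054), so replicate numbers were not read as pairs. The replicate block gave 1587 genes at 12 against 3 months and 17 at 12 against 6 months, and Mt3 3.10 at 12 against 3 months. The block with the GC and length offset gave 764 genes at 12 against 6 months, 8435 and 6499 at 24 against 6 and 12 months, Mt1 -0.0050 and -0.098 at 12 against 3 and 6 months and 0.94 and 0.85 at 24 against 3 and 6 months, Mt2 -0.095 at 12 against 6 months and -0.044 and -0.23 at 24 against 3 and 6 months, and Mt3 3.80, 1.81 and 1.15 at 24 against 3, 6 and 12 months. Depth limits Mt3 at 3 months, where 5 reads in all set each of its ratios.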
